A study of Mus musculus with 12 samples.

Results

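The genes described here are the 9 T cell receptor alpha joining genes at the upstream end of the mouse alpha J cluster that were seen in productive receptors, TRAJ58, TRAJ57, TRAJ56, TRAJ53, TRAJ52, TRAJ50, TRAJ49, TRAJ48 and TRAJ47. They were chosen by name and position, with earlier results of these data known. A rearrangement was 1 combination of a V gene and a CDR3 nucleotide sequence, counted once per library, in a called cell and marked productive. The upstream genes accounted for 2974 of 9383 distinct alpha rearrangements and are 9 of the 43 TRAJ genes seen.

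The cells were CD45+ leukocytes of BALB/c mammary tumours from mice treated for 3 weeks with cyclophosphamide and pexidartinib or left untreated. Cyclophosphamide is an alkylating agent, and pexidartinib is an inhibitor of the CSF1 receptor tyrosine kinase. The series lists 12 samples, 8 expression libraries and 4 T cell receptor libraries, and all 4 receptor libraries are labelled treated. The receptor table names its libraries by tag, and 6 tags could be tied to a sample. CTX, CTX2, CSF1R and Combined carried treated labels, PBS1 an untreated label, and PBS2 a treated label in its receptor record and an untreated one in its paired expression record. PBS2 entered the within-library comparisons but not the one between treated and untreated libraries. CSF1R is tied to the treated group but not to a single sample. The labels do not define the tags and do not say which mouse gave which library, so every p-value measures only the spread between these libraries, which may be technical.

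The T cell receptor alpha chain is assembled in thymocytes by joining a TRAV gene to a TRAJ gene. The first joins on an allele are known to use upstream TRAJ genes with TRAV genes near the J cluster. Later joins on the same allele replace them, with more distant TRAV genes and more downstream TRAJ genes. Both alleles rearrange and a cell can express both alpha chains, unlike the beta chain, whose locus is allelically excluded. The join and the bases added or lost there form the CDR3, the loop that contacts peptide.

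The 9 genes lie on chromosome 14 of the GRCm38.p6 assembly, from TRAJ58 at chr14:54157280-54157342 to TRAJ47 at chr14:54171802-54171856. All 9 are J gene segments, whose coding part supplies the end of the CDR3 and the framework after it. The distance from TRAJ58 to the end of TRAJ47 is 14.6 kb, and the cluster runs on for 60.6 kb to TRAJ2. The J-encoded end of the CDR3 was read from the rearrangements base by base from the last position, as long as at least 60% of the sequences that matched up to there had the same next base, so that a sequence trimmed further in keeps only part of it. These ends are shown because the genes differ in them and because they recur in the receptors described further on. Capitals mark the last 12 bases, which end in the conserved phenylalanine codon.
TRAJ58: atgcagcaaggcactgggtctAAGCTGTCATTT
TRAJ57: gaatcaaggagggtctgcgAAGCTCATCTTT
TRAJ56: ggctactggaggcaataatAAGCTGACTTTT
TRAJ53: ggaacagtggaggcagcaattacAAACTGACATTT
TRAJ52: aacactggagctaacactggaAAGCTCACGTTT
TRAJ50: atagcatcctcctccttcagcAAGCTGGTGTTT
TRAJ49: cgaacacgggttaccagAACTTCTATTTT
TRAJ48: ccaactatggaaatgagAAAATAACTTTT
TRAJ47: atggactatgcaaacAAGATGATCTTT

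The 6 libraries held 31178451 to 83903661 reads and 6807 to 121305 UMIs in the contig table. Combined supplied 2234 of the 2974 upstream rearrangements and the other 5 libraries 740. The table listed 10 immunoglobulin contigs and 2 gamma or delta contigs for these libraries, numbers that the T cell V(D)J enrichment itself limits. Of the cell barcodes, 50 occurred in more than 1 library, and 63 upstream rearrangements did so, but in 0 cases did the same barcode carry the same upstream rearrangement in 2 libraries.

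The upstream genes made up close to a constant share of the alpha repertoire in 5 libraries and a lower share in PBS1. The share was 137 of 419 rearrangements (32.7%) in CTX, 163 of 518 (31.5%) in CTX2, 272 of 857 (31.7%) in CSF1R, 2234 of 7040 (31.7%) in Combined, 129 of 404 (31.9%) in PBS2 and 39 of 145 (26.9%) in PBS1. The exact Clopper-Pearson 95% interval was 19.9 to 34.9% in PBS1, and it held the values of the other 5. These intervals cover counting error only. Over the 6 libraries the share was 31.1% ± 2.09 (SD, n = 6). The next 10 genes, TRAJ45 to TRAJ34, held 24.8% ± 1.59, TRAJ33 to TRAJ21 (11 genes) held 24.1% ± 2.49 (SD, n = 6 for each), while TRAJ18 to TRAJ2 (13 genes) held 1783 of the 9383 rearrangements.

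Treated libraries averaged 31.9% ± 0.540 upstream rearrangements (SD, n = 4), against 26.9% in the 1 untreated library, a difference of 5.01 percentage points. The two-sided exact permutation test gave p = 0.200, which is the smallest p that 4 libraries against 1 can give. The difference was 12 points with each cell counted once and 2.50 points with PBS2 set among the untreated. PBS1 also had the fewest rearrangements, so its depth moves with the untreated label, and its part in the difference was not tested.

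TRAJ52 had the highest mean share of the 9 genes, and TRAJ47 the lowest. TRAJ52 took 5.49% of rearrangements in CTX, 4.44% in CTX2, 4.55% in CSF1R, 4.67% in Combined, 5.45% in PBS2 and 5.52% in PBS1, a mean of 5.02% ± 0.515 (SD, n = 6). It stood first of all 43 TRAJ genes by mean share, ahead of TRAJ49 at 4.05% ± 1.07 and TRAJ56 at 4.0% ± 0.746. These 3 genes lie at different places in the group, so the order of use was not the order along the chromosome.

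TRAJ53 averaged 3.78% ± 1.28 and TRAJ50 3.70% ± 1.01. TRAJ57 averaged 3.37% ± 0.800 and TRAJ48 3.13% ± 0.884. The lowest were TRAJ58, the most upstream, at 2.36% ± 0.874, and TRAJ47 at 1.67% ± 0.783 (SD, n = 6 for each). No neighbouring pair in this order passed: over 8 neighbouring pairs, exact sign-flip permutation tests gave adjusted p from 0.500 to 0.875. With 6 libraries the smallest p is 0.0312, so a pair could pass only if most other pairs reached it too. The adjusted test therefore could hardly find a difference between neighbours. The widest spread was that of TRAJ53, which took 6.21% in PBS1 (9 rearrangements) and 2.70 to 4.06% in the other 5 libraries. TRAJ48 was lowest in PBS1 with 1.38% (2 rearrangements), against 3.22 to 3.82% in the other 5. PBS1 was the highest library for TRAJ53 and TRAJ52 and the lowest for TRAJ58, TRAJ57, TRAJ56, TRAJ49 and TRAJ48.

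**Figure D1:**
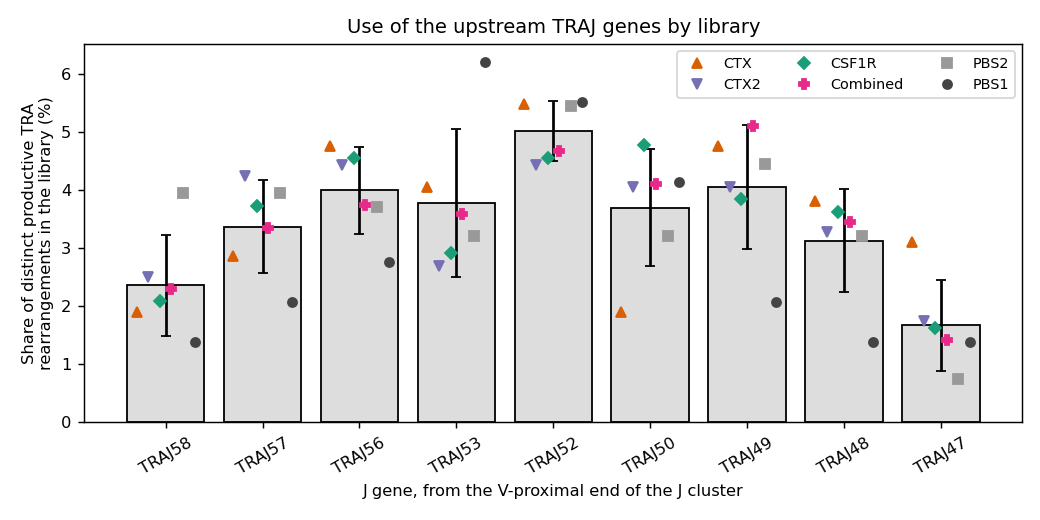
The y axis gives the share of distinct productive alpha rearrangements in each library (%), and the x axis the 9 upstream TRAJ genes from the V side of the cluster. Points are the 6 libraries, and bars and whiskers are the mean and SD (n = 6). TRAJ52 has the highest mean, 5.02%, and TRAJ47 the lowest, 1.67%, and the libraries overlap between neighbouring genes.

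Upstream TRAJ genes were joined more often than the other TRAJ genes to the TRAV genes at the J end of the V cluster and rarely to those at its far end. The test set counts of rearrangements per TRAV gene with an upstream TRAJ against counts with any other TRAJ in the same library, by edgeR's quasi-likelihood test with library as a block and Benjamini-Hochberg adjustment, threshold 0.05. Of 58 TRAV genes with at least 10 rearrangements, 24 passed (41.4%), 9 higher (15.5%) and 15 lower (25.9%) with upstream TRAJ genes. Among the 20 ranked TRAV genes nearest the J cluster, 9 were tested, 5 were higher and 2 lower, with a median log2 fold of 1.19. Over all 58 the median was -0.15. The counts are shares of a whole, so a higher share of some TRAV genes lowers that of others.

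TRAV21-DV12 is the TRAV gene nearest the J cluster in the reference assembly, 281 kb from TRAJ58. It was used in 118 upstream rearrangements (3.97%) and in 61 of the rest (0.952%), a log2 fold of 1.79 ± 0.42 (SE, adjusted p = 0.000112). TRAV19, at 311 kb, was used in 66 upstream rearrangements and 25 of the rest, a log2 fold of 2.48 ± 0.43 (SE, adjusted p = 2.10e-07). TRAV17, at 350 kb, was used in 80 against 54, with a log2 fold of 1.84 ± 0.42 (SE, adjusted p = 8.48e-05). TRAV19 and TRAV17 were higher with upstream genes in 6 of 6 libraries and TRAV21-DV12 in 5 with a tie in the other. TRAV21-DV12 did not pass without Combined (log2 fold 1.16, adjusted p = 0.185 by edgeR) or with each cell counted once (adjusted p = 0.0665).

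TRAV3-4 (69 against 28, log2 fold 2.64, adjusted p = 1.59e-08 by edgeR) and TRAV13-4-DV7 (26 against 23, log2 fold 1.19, adjusted p = 0.0377 by edgeR) were the other near genes that were higher. TRAV13-4-DV7 lost its call under 8 alternatives: TMM scaling (adjusted p = 0.102), DESeq2 (0.465), at least 2 UMIs (0.0825), no possible doublets (0.134), each cell counted once (0.462), and without CSF1R (0.254), CTX (0.104) or Combined (0.570). The 2 near genes that were lower, TRAV13-2 and TRAV3-3, stand at 522 and 491 kb, the far side of the 20. TRAV13-2 had 5 upstream rearrangements against 50 of the rest, a log2 fold of -2.13 ± 0.62 (SE, adjusted p = 0.00270 by edgeR). It did not pass with DESeq2 (adjusted p = 0.0998) or without Combined (adjusted p = 0.277 by edgeR).

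The 8 TRAV genes at the far end of the locus, 1473 to 1728 kb from TRAJ58, were all lower with upstream TRAJ genes. TRAV1, the most distant, was used in 2 upstream rearrangements and 80 of the rest (log2 fold -3.97 ± 0.62, SE, adjusted p = 1.59e-08 by edgeR). TRAV2 had 2 against 64, TRAV5-1 had 2 against 95, TRAV6-1 had 2 against 56 and TRAV3-1 had 1 against 32, with log2 folds of -3.67, -4.20, -3.39 and -3.34. TRAV6-2 (6 against 79), TRAV7-1 (7 against 98) and TRAV7D-2 (17 against 177) had log2 folds of -2.50, -2.57 and -2.24. All 8 were lower in at least 5 of 6 libraries. TRAV3-1 did not pass without Combined (adjusted p = 0.0589 by edgeR), and TRAV7D-2 did not pass when each cell was counted once (adjusted p = 0.0847).

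Together these 8 genes, grouped after their values were seen, held 4 of the upstream rearrangements in CTX (2.92%), 4 in CTX2 (2.45%), 2 in CSF1R (0.735%), 28 in Combined (1.25%), 1 in PBS2 (0.775%) and 0 of 39 in PBS1, which allows up to 7.69%. Among all other TRAJ genes the same 8 held 10.6, 12.1, 12.1, 10.1, 13.1 and 16.0% in the same libraries, so the groups did not overlap. Pooled over libraries, they were in 39 of 2974 rearrangements with TRAJ58 to TRAJ47 (1.31%), 220 of 2416 with TRAJ45 to TRAJ34 (9.11%), 244 of 2210 with TRAJ33 to TRAJ21 (11%) and 217 of 1783 with TRAJ18 to TRAJ2 (12.2%). Since the 8 genes were grouped for being low with upstream genes, the low share there is built in.

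The share also varied among the 9 genes themselves. TRAJ58 had 0 of 218 rearrangements with the 8 far TRAV genes and TRAJ57 had 0 of 321, which allows up to 1.38% and 0.935%, while TRAJ56 had 1 of 365 and TRAJ53 1 of 331. TRAJ52 had 6 of 444, TRAJ50 had 9 of 378 and TRAJ49 had 5 of 454. TRAJ48 had 10 of 322 (3.11%) and TRAJ47 had 7 of 141 (4.96%), the highest share. At the near end, TRAV17, TRAV18, TRAV19 and TRAV21-DV12 together took 12.4% of TRAJ58, 16.5% of TRAJ57 and 13.7% of TRAJ56 rearrangements, and 4.26 to 8.76% of those of the other 6 genes. Outside the group they took 3.31% with TRAJ45 to TRAJ34, 2.04% with TRAJ33 to TRAJ21 and 0.953% with TRAJ18 to TRAJ2. These shares were pooled over libraries and are a description, since Combined supplied most of them.

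**Figure D2:**
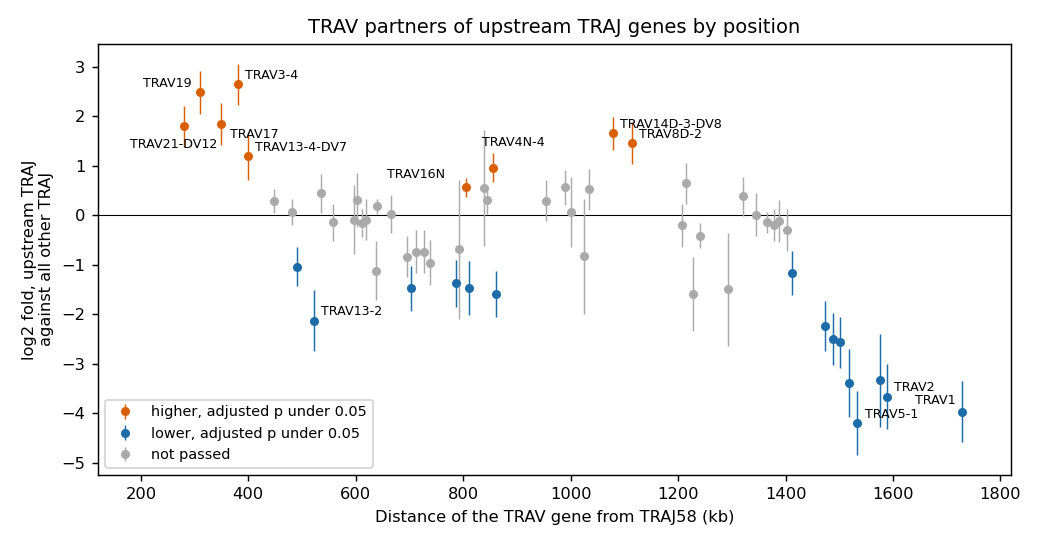
The x axis is the distance of each TRAV gene from TRAJ58 (kb), and the y axis is the edgeR log2 fold of its use with upstream TRAJ genes against all other TRAJ genes, with SE as whiskers (58 genes, 6 libraries). The 5 genes nearest TRAJ58 are higher and the 8 farthest are lower. Between them 4 genes are higher, while TRAV13-2, TRAV3-3, TRAV6-4, TRAV14N-3, TRAV8N-2, TRAV9N-4 and TRAV7D-3 are lower.

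The 4 called genes that were higher away from the J end were TRAV14D-3-DV8 (155 against 106, log2 fold 1.65), TRAV8D-2 (70 against 52, log2 fold 1.45), TRAV4N-4 (145 against 158, log2 fold 0.96) and TRAV16N (157 against 233, log2 fold 0.56). Each has a closely related copy inside the 20 nearest genes of the reference, TRAV14-3, TRAV8-2, TRAV4-4-DV10 and TRAV16, and these 4 copies had 0 rearrangements in the deposited calls. TRAV5-4, also among the 20 nearest, had 0 rearrangements too, but TRAV5N-4 (108 against 207, log2 fold 0.31) was not called higher (adjusted p = 0.429 by edgeR). A central part of the mouse alpha V cluster is repeated, with copies marked D or N in their names, and the copies differ between strains, so the deposited split between copies is uncertain in BALB/c mice. Among the other copies, TRAV14N-3 had 19 against 129 (log2 fold -1.38) and TRAV8N-2 had 10 against 54 (log2 fold -1.47), both called lower, while TRAV16D-DV11 had 2 against 4 and TRAV4D-4 had 0 in both. With all copies summed, the TRAV14-3 family held 5.85% of upstream rearrangements against 3.67% of the rest, the TRAV8-2 family 2.69% against 1.65%, the TRAV4-4 family 4.88% against 2.47% and the TRAV16 family 5.35% against 3.70%. TRAV16N did not pass with TMM scaling (adjusted p = 0.309), with DESeq2 (0.324), without the library block (0.0675), with each cell counted once (0.509) or without Combined (0.0869). TRAV4N-4 did not pass with TMM (adjusted p = 0.0694), with DESeq2 (0.0998), with each cell counted once (0.142) or without Combined (0.188). TRAV8D-2 did not pass with DESeq2 (adjusted p = 0.114), without Combined (0.185) or with each cell counted once (0.160), and TRAV14D-3-DV8 did not when each cell was counted once (adjusted p = 0.0847 by edgeR). TRAV9N-4, from the same repeats, was lower with 14 against 81 (log2 fold -1.59, adjusted p = 0.00230 by edgeR) but did not pass with DESeq2 (adjusted p = 0.0522) or with at least 2 UMIs (0.0825).

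As a single share, the 20 nearest TRAV genes were used by 20.9% ± 5.46 of upstream rearrangements and 15.4% ± 2.92 of the rest (SD, n = 6). The difference was 5.56 ± 7.96 percentage points, higher in 5 of 6 libraries, and did not pass the exact sign-flip permutation test (p = 0.125, adjusted over 7 within-library measures 0.219). It ranged from 17.3 points in CTX2 to -6.99 in PBS1, where 39 upstream rearrangements were measured. Its mean was 12.7 points in the JR libraries, CTX2 and Combined, whose sample titles begin with those letters, and 1.99 points in the 4 numbered libraries. With the 10 nearest TRAV genes it was 8.12 points (exact permutation p = 0.0312, adjusted 0.0547), and with each cell counted once 3.72 points. Pooled by TRAJ gene, the share of the 20 nearest ran from 15.6% (TRAJ50) to 25.5% (TRAJ57) within the group. It reached 20.8% (TRAJ7) outside the group. The share of TRAV17, TRAV18, TRAV19 and TRAV21-DV12, single-copy genes singled out after their values were seen, was 10.2 against 0.709% in CTX, 6.75 against 1.97% in CTX2, 6.99 against 2.91% in CSF1R, 9.44 against 2.25% in Combined, 6.98 against 2.91% in PBS2 and 5.13 against 0% in PBS1 (0 of 106, which allows up to 2.83%). It averaged 7.58% ± 1.89 for upstream genes and 1.79% ± 1.19 for the rest (SD, n = 6), and the groups did not overlap. Since these genes were singled out on the same counts, this separation is in part built in.

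Of the 10 most common TRAV partners of the upstream genes, 4 were called higher, 0 were called lower and 6 did not pass. Over all 58 TRAV genes tested, 15.5% were called higher and 25.9% lower. The 10 were picked by their upstream counts, which the test also used, so the list favours higher calls and this split is in part built in. TRAV6-6 was first with 180 upstream rearrangements (6.05%) against 351 of the rest (5.48%), followed by TRAV16N, TRAV14D-3-DV8, TRAV4N-4, TRAV6-7-DV9 (142), TRAV9D-1 (128), TRAV21-DV12, TRAV5N-4 (108), TRAV9-4 (98) and TRAV12D-2 (95). TRAV6-6, TRAV6-7-DV9, TRAV9D-1, TRAV5N-4, TRAV9-4 and TRAV12D-2 did not pass, with log2 folds from -0.42 to 0.31 (edgeR adjusted p 0.187 to 0.895). Of the TRAJ genes outside the group, TRAJ45, TRAJ43 and TRAJ32 had the TRAV profiles most like that of the upstream genes (Pearson r = 0.795, 0.793 and 0.783 over 77 TRAV genes, which share libraries and overall TRAV use).

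CDR3 loops averaged 14.2 ± 0.157 amino acids with upstream TRAJ genes and 13.5 ± 0.129 with the rest (SD, n = 6), and were longer with upstream genes in 6 of 6 libraries. The length was 14 against 13.7 amino acids in CTX, 14.2 against 13.4 in CTX2, 14.1 against 13.3 in CSF1R, 14.1 against 13.4 in Combined, 14.1 against 13.4 in PBS2 and 14.4 against 13.5 in PBS1, upstream rearrangements before the rest. The mean difference was 0.702 ± 0.194 amino acids, and the groups did not overlap. The exact sign-flip permutation test gave p = 0.0312, the smallest that 6 libraries allow, and 0.0729 after adjustment over the 7 measures, which missed the threshold. At this smallest p a measure passes the adjustment only if most of the other measures reach it too. The adjusted test therefore could not decide on this difference by itself. With each cell counted once the difference was 0.431 amino acids (exact permutation p = 0.0625, adjusted 0.164).

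The genes of the group differed among themselves by more than this. TRAJ53 and TRAJ52 had a mean of 14.9 amino acids, TRAJ50 14.6, TRAJ56 14.3, TRAJ57 14.2 and TRAJ58 13.9. TRAJ49, TRAJ48 and TRAJ47, the downstream 3, had 13.3, 13.2 and 12.8, below the mean of the rest (13.5). Outside the group the gene means ran from 9.46 (TRAJ44) to 15.3 (TRAJ2), so long loops were not particular to upstream genes. The printed J ends ran from 27 bases (TRAJ47) to 35 bases (TRAJ53) and, weighted by rearrangements, averaged 31.4 bases in the upstream group and 29.1 bases in 32 other genes. The CDR3 bases outside the J end averaged 14.2 ± 0.340 with upstream genes and 14.6 ± 0.374 with the rest, a difference of -0.445 ± 0.648 bases (SD, n = 6).

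Trimming of the J end also differed between genes. The whole printed end was kept in 36.7% of TRAJ56 and 30.2% of TRAJ57 rearrangements, and in 10.1% of those of TRAJ58, which lost a mean of 5.49 bases. TRAJ50 lost 4.16, and 13 of its 378 CDR3 sequences ended at another position than the printed one. The other 6 genes lost 2.59 to 3.80 bases, with TRAJ56 at 2.33. A base added at the join that matches the J gene counts as kept here.

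**Figure D3:**
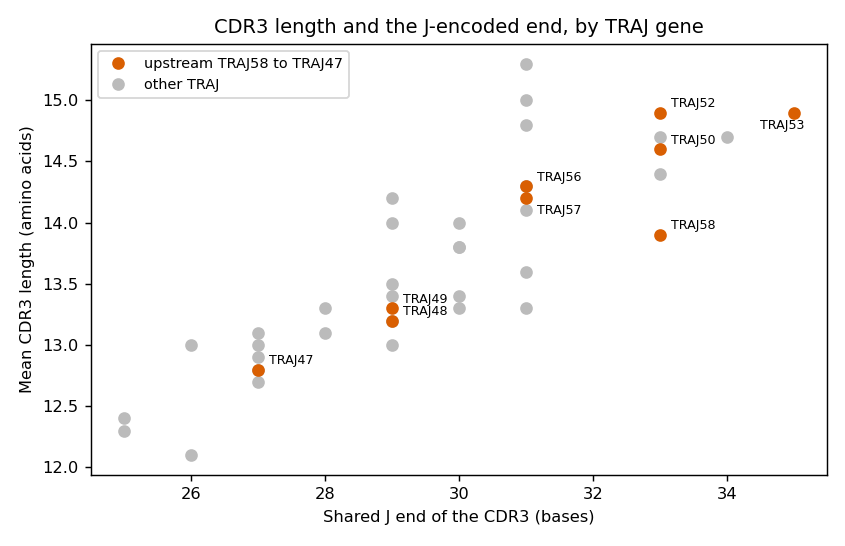
Each point is 1 TRAJ gene, with the length of its shared J end (bases) on the x axis and the mean CDR3 length of its rearrangements (amino acids) on the y axis. TRAJ53, with the longest end of the 9 upstream genes (35 bases), has a mean of 14.9 amino acids, and TRAJ47, with the shortest (27 bases), has 12.8.

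In cells with a pair of productive alpha chains, upstream TRAJ chains went together in every library. The pairs numbered 1351, with both chains upstream in 236, 1 in 326 and neither in 789. The partner of an upstream chain was upstream in 81.2% of cases in CTX (32 chains), 58.3% in CTX2 (48), 76.2% in CSF1R (63), 55.7% in Combined (621), 69.0% in PBS2 (29) and 80.0% in PBS1 (5). The partner of any other chain was upstream in 6.0, 16.9, 10.6, 19.1, 12 and 3.70% in the same libraries. The means were 70.1% ± 11 and 11.4% ± 5.98, a difference of 58.7 ± 16.8 percentage points (SD, n = 6), and the groups did not overlap.

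The exact sign-flip permutation test on the partner share gave p = 0.0312, the smallest 6 libraries allow, and 0.0729 after adjustment, which missed the threshold. As for CDR3 length, no difference of any size could pass the adjustment unless most of the other measures also reached the smallest p. The difference was smallest in Combined (36.7 points) and CTX2 (41.4), the JR libraries, with a mean of 39.0 points, and 68.5 points in the 4 numbered libraries. Cells with 1 beta chain gave 66.2% against 14.1% pooled, and cells with 2 or more beta chains, which include possible doublets, gave 40.2% against 25.7%. Without the possible doublets the mean difference was 62.6 points, and without pairs of the same TRAJ gene it was 55.1 points.

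Partners of upstream chains thinned out with distance along the cluster. Pooled, 59.1% of their partners were upstream, 23.8% used TRAJ45 to TRAJ34, 11.2% TRAJ33 to TRAJ21 and 5.89% TRAJ18 to TRAJ2. For the other chains the same groups held 17.1, 29.0, 28.7 and 25.2% of partners. Within the upstream group, the partner was upstream for 81.8% of TRAJ57 chains (63 of 77), 70.5% of TRAJ56, 65.3% of TRAJ53 and 65.1% of TRAJ58 chains. The share was 60.2% for TRAJ52, 52.3% for TRAJ50, 48.1% for TRAJ49, 47.7% for TRAJ48 and 18 of 40 chains for TRAJ47. Over all TRAJ genes, the positions of the 2 chains had a Spearman rho of 0.63 over 956 pairs in cells with 1 beta chain and 0.23 over 331 pairs in cells with 2 or more, as a description of cells that share libraries.

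**Figure D4:**
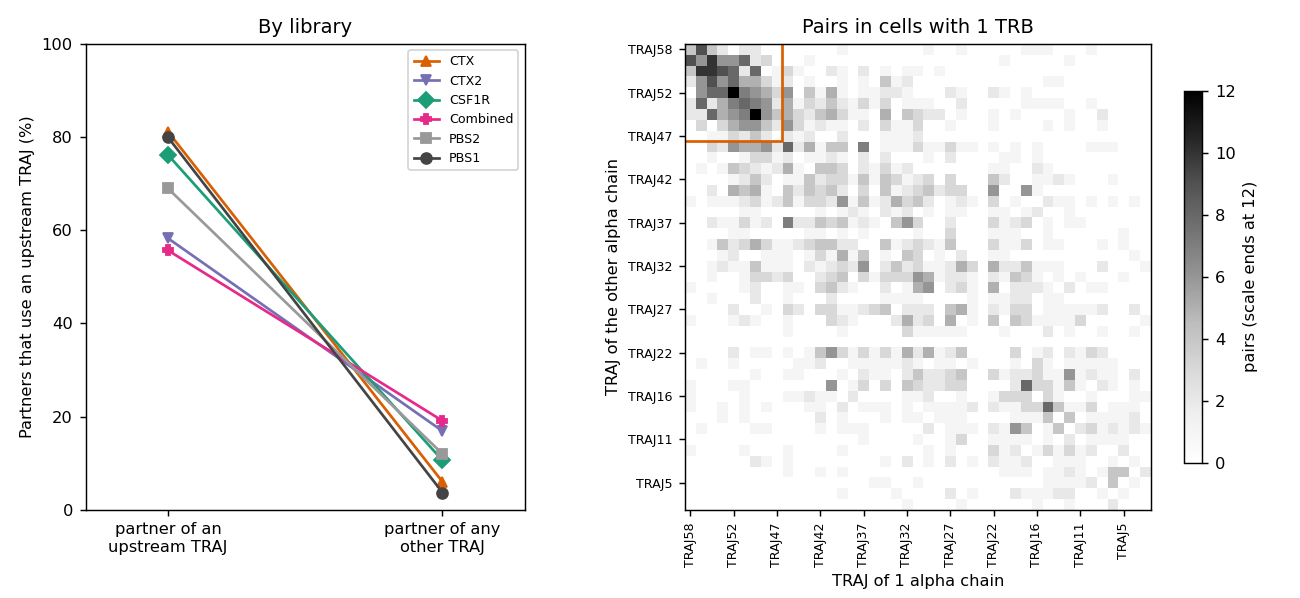
Left, the share of partner alpha chains that use an upstream TRAJ gene (%), for partners of an upstream chain and of any other chain, with 1 line per library. Right, a map of the 956 pairs in cells with 1 beta chain, with the TRAJ of each chain on the axes, the count as shade and the upstream group outlined. The left value is above the right one in all 6 libraries, and pairs crowd along the diagonal.

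A second productive alpha chain was found beside 22.3% ± 5.12 of upstream chains and 29.1% ± 3.72 of the rest (SD, n = 6), a difference of -6.72 ± 5.59 points, lower in 6 of 6 libraries. The share of rearrangements whose cell held another one was 22.2 against 34.7% in CTX, 25.9 against 29.8% in CTX2, 23.1 against 24.0% in CSF1R, 27.6 against 31.1% in Combined, 22.5 against 27.0% in PBS2 and 12.8 against 27.7% in PBS1, upstream before the rest. The exact sign-flip permutation test gave p = 0.0312 and 0.0729 after adjustment, which missed the threshold, with the same limit on what the adjusted test can decide. With high-confidence contigs alone the difference was -4.10 points and p was 0.125 by the same exact test, and with at least 2 UMIs it was -4.28 points.

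Productive and nonproductive rearrangements were compared because only productive ones are carried into the receptor. The upstream share was 31.1% ± 2.09 among productive and 32.7% ± 6.93 among nonproductive rearrangements (SD, n = 6), a difference of -1.60 ± 8.09 points that did not pass (exact permutation p = 0.750, adjusted 0.750). Nonproductive rearrangements numbered 20 to 324 per library, and the sign turned with high-confidence contigs, with at least 2 UMIs and without PBS1. A difference of a few points was not detectable at this depth.

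The share of TRBV13 beta partners and the share of expanded clones did not pass the test, and no other beta gene was tested. TRBV13 genes, a family of common beta V genes, were paired with 30.2% ± 12.4 of upstream rearrangements and 34.7% ± 3.14 of the rest (SD, n = 6, difference -4.53 ± 11.9 points, exact permutation p = 0.469, adjusted 0.547). The value in PBS1, 8.11% of 37 rearrangements, was the lowest, and without it the difference was -0.115 points. With each cell counted once it was -8.57 points (exact permutation p = 0.0938, adjusted 0.164). Beta clones of 2 or more cells were found with 6.13% ± 4.94 of upstream rearrangements and 8.61% ± 6.47 of the rest (SD, n = 6, difference -2.47 ± 4.42 points, exact permutation p = 0.375, adjusted 0.525), higher in 3 libraries and lower in 3.

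By cells rather than rearrangements, the upstream share was highest in CTX2 and CTX. A cell counted here if any of its alpha chains was upstream, so cells with a second chain can raise this share. Of the cells with an alpha chain, 41.3% in CTX2, 36.5% in CTX, 33.2% in CSF1R, 35.0% in Combined, 33.2% in PBS2 and 25.0% in PBS1 carried an upstream one. The largest upstream rearrangement of each library, for Combined 1 of 2 that tie, is printed to show the joins, with capitals marking the bases that match the J end.
CTX2 TRAV7D-4 TRAJ49: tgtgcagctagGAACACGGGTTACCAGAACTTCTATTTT
CTX TRAV14N-1 TRAJ47: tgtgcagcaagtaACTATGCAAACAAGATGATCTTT
CSF1R TRAV14N-3 TRAJ48: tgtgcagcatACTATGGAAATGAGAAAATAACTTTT
Combined TRAV14D-3-DV8 TRAJ53: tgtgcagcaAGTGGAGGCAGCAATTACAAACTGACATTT
PBS2 TRAV14N-1 TRAJ58: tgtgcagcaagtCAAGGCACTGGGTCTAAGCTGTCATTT
PBS1 TRAV5N-4 TRAJ49: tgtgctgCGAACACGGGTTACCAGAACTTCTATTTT

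The CTX2 rearrangement was found in 109 cells, 10.4% of that library's cells with an alpha chain, and all 109 carried 1 beta chain of TRBV4 with TRBJ2-7. The CTX rearrangement was found in 43 cells (8.53%), of which 37 had a beta chain and 36 carried 1 of TRBV2 with TRBJ2-5. In both, 1 alpha chain went with 1 main beta chain. The PBS1, PBS2, CSF1R and Combined rearrangements were found in 8, 6, 5 and 4 cells, and all of these cells had a beta chain. The commonest beta chain was in 7 of the PBS1 cells, 6 of the PBS2 and 4 of the CSF1R cells. In Combined it was in 1 cell, so those 4 cells shared the alpha chain but no beta chain. With each cell counted once, the mean shares of 4 genes moved: TRAJ49 had 6.30%, TRAJ52 4.16%, TRAJ58 3.38% and TRAJ47 2.53%, so that TRAJ52 stood below TRAJ49.

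Of 2788 upstream receptors, taken as TRAV, TRAJ and CDR3 amino acids, 99 (3.55%) were found in 2 or more libraries, against 114 of 6175 other receptors (1.85%). These counts depend on library size and were not tested. Among the receptors found in several libraries, the one in most cells was TRAV14N-1 with TRAJ58, the same as the largest of PBS2, in 58 cells of 4 libraries. It was found in 14 of 504 alpha-bearing cells in CTX (2.78%, exact interval 1.53 to 4.62%), 37 of 1044 in CTX2 (3.54%, 2.51 to 4.85%), 1 of 764 in CSF1R and 6 of 404 in PBS2. It was found in 0 of 6070 cells in Combined, which allows a share of up to 0.0494%, and in 0 of 188 in PBS1, which allows up to 1.60%.

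This TRAJ58 receptor was encoded by a pair of alpha nucleotide sequences, the first in 57 cells of CTX, CTX2 and PBS2 and the second in 1 cell of CSF1R. Capitals again mark the bases matching the J end.
CTX, CTX2 and PBS2: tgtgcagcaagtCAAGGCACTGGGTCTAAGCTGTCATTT
CSF1R: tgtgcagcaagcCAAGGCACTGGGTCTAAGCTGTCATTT

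Of the 58 cells, 53 had a beta chain, and each of these used TRBV13-1 or TRBV13-3 with TRBJ2-7. The beta CDR3 differed by library, with the main sequence of each given here and capitals marking the 12 bases shared by all of them at the end.
CTX, 12 cells, TRBV13-1: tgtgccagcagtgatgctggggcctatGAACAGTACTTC
CTX2, 32 cells, TRBV13-3: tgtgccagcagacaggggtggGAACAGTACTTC
CSF1R, 1 cell, TRBV13-1: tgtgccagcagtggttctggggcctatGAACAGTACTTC
PBS2, 6 cells, TRBV13-1: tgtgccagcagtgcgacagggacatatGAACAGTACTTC

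CTX held 2 more beta nucleotide sequences, in 1 cell each, that translate to the same CDR3 as its main one. The CTX, CSF1R and PBS2 beta loops were 39 bases long and the CTX2 loop 33. The alpha chain was thus shared between libraries while the beta chains were not.

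A second receptor, TRAV10N with TRAJ52, was found in 6 cells, 2 each in CTX, CTX2 and PBS1. Its 3 alpha nucleotide sequences encode 1 CDR3 and differ only before the J end.
CTX2, 2 cells: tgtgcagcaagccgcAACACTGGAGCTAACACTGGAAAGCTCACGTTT
CTX and PBS1, 3 cells: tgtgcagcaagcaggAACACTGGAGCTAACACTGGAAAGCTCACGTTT
PBS1, 1 cell: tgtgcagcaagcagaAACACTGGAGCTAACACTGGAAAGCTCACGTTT

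All 6 cells had a beta chain of TRBV5 with TRBJ1-4, of 45 bases. Its 4 nucleotide sequences share the last 24 bases, in capitals.
CTX, 2 cells: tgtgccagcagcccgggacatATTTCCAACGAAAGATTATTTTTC
CTX2, 2 cells: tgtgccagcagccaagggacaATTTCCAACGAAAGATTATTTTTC
PBS1, 1 cell: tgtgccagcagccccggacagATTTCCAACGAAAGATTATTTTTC
PBS1, the other cell: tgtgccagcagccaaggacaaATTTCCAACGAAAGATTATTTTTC

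The other receptors found in most libraries, TRAV6D-4 with TRAJ53 (4 libraries, 4 cells), TRAV16N with TRAJ48 (3 libraries, 4 cells) and TRAV16N with TRAJ49 (3 libraries, 3 cells), had a different beta chain in each cell. The TRAV16N and TRAJ48 receptor, for example, went with TRBV5, TRBV1, TRBV20 and TRBV2, each in 1 cell.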

How the data were processed

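The samples were CD45+ cells of mouse mammary tumours, made into libraries with a 5′ droplet kit and mouse T cell V(D)J enrichment, per the labels' protocols. The authors used Cell Ranger 3.0.2 with mm10/GRCm38, per the submitters' processing notes. The deposited table lists assembled contigs with read counts and UMI counts, whole numbers that are not normalized, plus chain, V and J gene and CDR3, and these calls were taken as deposited. It holds 11 library names, of which 5 matched no label and were not used.

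Distinct productive alpha rearrangements in called cells were counted per library. The members, gene lists and tests were chosen with earlier results of these data known. TRAV and TRAJ positions came from the RefSeq gene table (GRCm38.p6), in which all 77 TRAV names matched and 114 TRAV segments were ranked. All distances and ranks are those of this assembly and were not checked in BALB/c mice. A CDR3 listed under 2 TRAV names in 1 cell (71 cells) was treated as 1 chain when pairs were formed, a choice made after seeing the data. In all, 181 upstream rearrangements had a CDR3 that also stood under another TRAV name in the library, and these were counted under each name.

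Within-library differences were tested by two-sided exact sign-flip permutation over 6 libraries (smallest p 0.0312), with Benjamini-Hochberg adjustment over 7 measures. TRAV counts were tested with edgeR 4.0.16 in R 4.3.3 (library totals as sizes, no further normalization, at least 10 rearrangements), with DESeq2 1.42.0 as an alternative. The SE given for an edgeR log2 fold is approximate: its absolute value divided by the square root of the quasi-likelihood F statistic. On simulated data for the TRAV comparison (58 genes, 20 changed 3-fold) the test recovered 84.8% of changed genes, and 1.89% of its calls were unchanged genes. The simulated counts varied around the means of each library by counting error alone (Poisson), so these rates may not hold for the real counts. Intervals are Clopper-Pearson at 95%, and the limit for a count of 0 is 3 counts. The genes named are the 9 TRAJ genes, the 10 TRAV genes with most upstream rearrangements, up to 10 TRAV genes called in each direction, the 3 most similar TRAJ genes, the largest rearrangement per library and the 5 receptors found in most libraries. TRAV3-3, TRAV6-4, TRAV7D-3, TRAV14N-3, TRAV8N-2, TRAV18 and the reference copies of duplicated genes were named after their values were seen. Alternatives covered contig confidence, UMI minimum, doublets, counting cells, scaling, the start of the sample title (JR or a number) and leaving out each library. The labels do not say what the JR titles stand for.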

Additional observations from a re-analysis of the deposited data

Results flagged for a closer look

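The upstream TRAJ share of PBS1 was flagged because it stood far from the other libraries, at 26.9%, against 31.5 to 32.7% in the other 5. The share of TRAJ48 was flagged for the same reason, at 1.38% in PBS1 (2 rearrangements), against 3.22 to 3.82% in the other 5. PBS1 had the fewest alpha rearrangements, 145, and the part of its depth in these values was not tested. In all, 17 values were searched for an outlying library and 2 were flagged. The critical value used is set to flag about 1 in 20 groups by chance.

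Alpha contigs with a J gene and a constant region but no V gene lie outside the productive receptors, and TRAJ49 was flagged among them. It was named in 95 such contigs, 12.1% of 787, against 4.84% of productive rearrangements. Such an excess was not particular to TRAJ49. Outside the group, TRAJ7 was named in 7.50% of these contigs against 1.02% of productive rearrangements, and TRAJ41 in 6.99% against 0%. The TRAJ49 contigs numbered 18 in CTX, 1 in CTX2, 40 in CSF1R, 13 in Combined, 17 in PBS2 and 6 in PBS1. They had a median length of 285 bases and a median of 1 UMI. The 9 upstream genes together made up 26.4% of contigs with no V gene, against 31.7% of productive rearrangements.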

How the results depend on the processing

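Apart from the reversals given here, the differences reported kept their sign under the alternatives run. The productive minus nonproductive difference in upstream share turned to 0.592 points with high-confidence contigs, 3.78 with at least 2 UMIs and 0.159 within the JR libraries. Counting each cell once turned the expanded-clone difference to 0.0884 points, and the JR libraries alone gave 3.75 points for TRBV13 partners and 39.0 points for upstream partners of upstream chains. TRAV genes called numbered 24, against 13 with DESeq2, 13 with each cell counted once (12 of them among the 24) and 12 without Combined, and with TMM 6 were higher and 15 lower. Uncalled TRAV genes turned sign near 0: TRAV6-6 to -0.14 and TRAV6-7-DV9 to -0.15 with each cell counted once, TRAV6-7-DV9 to -0.01 with DESeq2, and TRAV9-4 to -0.05 with TMM, -0.02 with high-confidence contigs, -0.11 with at least 2 UMIs and -0.03 with each cell counted once. Leaving out single libraries, TRAV9-4 ranged from -0.03 (without CTX) to 0.34 and TRAV9D-1 from -0.31 to 0.01 (without CSF1R). The causes were not tested.

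Leaving out 1 library at a time gave 12 to 25 TRAV genes called, and these ranges in the differences between upstream and other rearrangements: 3.21 to 8.07 points for the 20 nearest TRAV genes, 0.665 to 0.773 amino acids for CDR3 length, -7.88 to -5.10 points for a second alpha chain, 55.2 to 63.1 points for upstream partners, -7.04 to -0.115 points for TRBV13 and -3.22 to -1.09 points for expanded clones. The productive minus nonproductive difference ran from -3.64 to 0.703, and treated minus untreated from 4.75 to 5.16. With 5 libraries the smallest sign-flip p is 0.0625, so no permutation test could pass. No paired analysis was possible because the labels number no replicates of treated and untreated libraries, and this concerns that comparison alone. The other comparisons were made within each library. Depth limits PBS1 most, with 39 upstream rearrangements.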
